A study of Mus musculus with 7 samples.

Results

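Chemokines are small secreted proteins that draw leukocytes along a gradient, and 10 of them, 7 of the CXC and 3 of the CC family, are described here in mouse primary hepatocytes with and without WDR6. The genes were *Cxcl1*, *Cxcl2*, *Cxcl5*, *Cxcl9*, *Cxcl10*, *Cxcl12*, *Cxcl16*, *Ccl2*, *Ccl5* and *Ccl7*. They were chosen by gene symbol with the measured difference between the genotypes already known, so that their read counts in WDR6-WKO and WT libraries are given as a description, with no p-values. All 10 were among the 14819 rows of the table of counts, and all 10 passed the filter on low counts.

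WDR6 is a WD40 repeat protein, and the study asked how its loss changes the transcriptome of hepatocytes. WT mice (n = 4 samples) were compared with WDR6-WKO mice (n = 3 samples), which carry a whole-body knockout of *Wdr6* made by CRISPR–Cas9, so that every cell type of those animals carries the deletion. Hepatocytes were isolated from male mice of both genotypes by collagenase perfusion, cultured overnight in William's E medium with fetal bovine serum, and given no treatment. The age of these animals was not stated apart from that of mice bought for the study, and the methods call the replicates biological.

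Libraries held 17816913 to 23668940 counted reads. Levels are given as CPM, which are counts scaled with the TMM method to a fixed library total, with the s.d. over libraries of one genotype. *Wdr6* fell from 44.0 ± 4.03 CPM (n = 4) to 2.38 ± 0.179 CPM (n = 3), a log2 fold change of -4.20. WDR6-WKO replicate 3 stood apart from the other WDR6-WKO libraries, with a chi-square of 14.4 and 16.2 per gene against them, whereas all other pairs of one genotype gave at most 8.34. The labelled cell type was checked on hepatocyte markers. Albumin (*Alb*) was at 7366 ± 730 CPM in WT and 6480 ± 363 in WDR6-WKO, and 6 of 10 hepatocyte markers passed the test as lower in WDR6-WKO (*Cps1*, *Hnf4a*, *Pck1* and *Apoa1* led, with log2 fold changes of -0.69, -0.27, -1.73 and -0.69), against a median log2 fold change of 0.01 over all genes tested. Of the other 2, *Asgr1* lost its call under 9 of 14 alternatives and *Cyp2e1* under 4. Over all genes tested, 6.18% were called lower. The summed level of the 10 markers was 8213 to 9786 CPM in WT and 7589 to 8113 in WDR6-WKO.

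Chemokines are named by the spacing of the first cysteines near their amino terminus. CXC chemokines have 1 residue between the first 2 cysteines, and CC chemokines have none. CXC members with the residues glutamate, leucine and arginine just before the cysteines attract neutrophils through CXCR2, while *Cxcl9* and *Cxcl10* are induced by interferons and attract activated T cells through CXCR3. *Ccl2* and *Ccl7* call monocytes through CCR2. In the liver, hepatocytes, Kupffer cells, endothelial cells and stellate cells can all make chemokines, and bulk RNA does not tell them apart.

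The coding bases around the first cysteines are shown because they define both families and the neutrophil-attracting subgroup. They were read from GENCODE transcripts of GRCm38, 5′ to 3′ on the coding strand, with the 2 cysteine codons in capitals.
Cxcl1: aatgagctgcgcTGTcagTGCctgcagacc
Cxcl2: agtgaactgcgcTGTcaaTGCctgaagacc
Cxcl5: acggagctgcgtTGTgttTGCttaaccgta
Cxcl9: aggaatgcacgaTGCtccTGCatcagcacc
Cxcl10: aggacggtccgcTGCaacTGCatccatatc
Cxcl12: ctgagctaccgaTGCcccTGCcggttcttc
Cxcl16: gtcgctggaagtTGTtctTGTgatcgtacc
Ccl2: gccccactcaccTGCTGCtactcattc
Ccl5: gacaccactcccTGCTGCtttgcctac
Ccl7: aatgcatccacaTGCTGCtatgtcaag
One codon separates the cysteines in all 7 CXC genes, and none does in the 3 CC genes. The 3 codons before the first cysteine spell glutamate, leucine and arginine in *Cxcl1*, *Cxcl2* and *Cxcl5*, and in no other CXC gene of the 10. The translated proteins of *Cxcl1* and *Cxcl2* were identical at 67.7% of aligned positions, and those of *Ccl2* and *Ccl7* at 50.5%.

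The genes lie in clusters on GRCm38. *Cxcl5* (chr5:90759360-90761624, plus strand), *Cxcl1* (chr5:90891241-90893115, plus) and *Cxcl2* (chr5:90903871-90905938, plus) span 147 kb. *Cxcl9* (chr5:92321347-92328079, minus) and *Cxcl10* (chr5:92346638-92348889, minus) span 27.5 kb farther along that chromosome. *Ccl2* (chr11:82035571-82037453, plus) and *Ccl7* (chr11:82045712-82047525, plus) span 12.0 kb. *Ccl5* (chr11:83525778-83530518, minus) and *Cxcl16* (chr11:70453983-70459984, minus) lie elsewhere on chromosome 11, and *Cxcl12* (chr6:117168535-117181367, plus) lies alone. All are protein-coding genes in that annotation. Of the 50-base sequences of *Cxcl2*, 5.84% also occur in *Cxcl3*, and the share was at most 0.69% for the other 9 genes. The exons of *Cxcl16* overlap those of *Zmynd15* on the opposite strand by 915 bases, and the strand setting of the counting is not given in the sources used here, so reads of the pair cannot be told apart there.

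Stretches of 4 promoters are shown because they hold motifs of the interferon and NF-κB pathways, which are known to induce these genes. They come from RefSeq promoters of GRCm38.p6, which matched 5 of the 10 genes, and are written 5′ to 3′ on the strand of the gene. Capitals mark matches to the NF-κB consensus, known by that name, and to the interferon-stimulated response element, searched as GAAANNGAA, both on either strand.
Cxcl10 (chr5:92348969-92349139, minus strand): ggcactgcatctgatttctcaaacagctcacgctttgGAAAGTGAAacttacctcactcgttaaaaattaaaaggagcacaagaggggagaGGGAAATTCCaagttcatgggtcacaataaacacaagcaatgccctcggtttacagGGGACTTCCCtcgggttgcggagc
Cxcl9 (chr5:92328230-92328279, minus strand): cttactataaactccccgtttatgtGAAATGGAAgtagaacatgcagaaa
Cxcl1 (chr5:90891150-90891199, plus strand): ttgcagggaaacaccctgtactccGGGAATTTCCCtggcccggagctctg
Cxcl2 (chr5:90903778-90903827, plus strand): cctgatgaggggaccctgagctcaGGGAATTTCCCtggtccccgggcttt
The *Cxcl10* stretch holds an interferon-stimulated response element that begins 213 bases before the start and NF-κB matches that begin 159 and 103 bases before it, and these do not overlap. *Cxcl9* holds an interferon-stimulated response element that begins 175 bases before the start. In *Cxcl1* and *Cxcl2* the same 11 capitals hold overlapping NF-κB matches on both strands. The 250 bases before the start of *Cxcl12* held neither motif, and none of the 5 held the GAS element, searched as TTCNNNGAA. Over 32851 RefSeq promoters, 3.90% held the NF-κB consensus, 7.13% the interferon-stimulated response element and 7.02% the GAS element in those 250 bases. Such a match is a string of letters and not a measured binding site.

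All 10 chemokines had a higher mean in WDR6-WKO than in WT hepatocytes. Their summed level did not overlap between the genotypes and went from 430, 449, 437 and 454 CPM in WT (442 ± 10.8, n = 4) to 593, 576 and 587 CPM in WDR6-WKO (mean 585, n = 3), which is 1.32 times the WT mean. *Ccl2* made up 40.6% of the WT sum, and without it the sum was still 1.26 times as high. In edgeR's test with Benjamini-Hochberg adjustment over 14779 genes, 5 of the 10 were past an adjusted p of 0.05 as higher in WDR6-WKO (*Cxcl5*, *Cxcl10*, *Cxcl12*, *Ccl2* and *Ccl7*) and 0 as lower (also 0 with DESeq2, with limma-voom and at an unadjusted p under 0.05), beside 6.65% of all genes tested as higher and 6.18% as lower. The CPM of 8 of the 10 did not overlap between the genotypes and lay higher in WDR6-WKO, beside 11.8% of all genes. The median log2 fold change was 0.45 over the 10 and 0.01 over all genes. Because the genes were picked with this contrast known, these counts describe the list and are no test of it. Without WDR6-WKO replicate 3, 7 of the 10 were past the threshold, with *Cxcl16* and *Ccl5* added. Leaving out that library also raised the calls over all genes, from 1897 of 14779 to 4233 of 14796. Those called higher went from 983 to 2150.

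**Figure D1:**
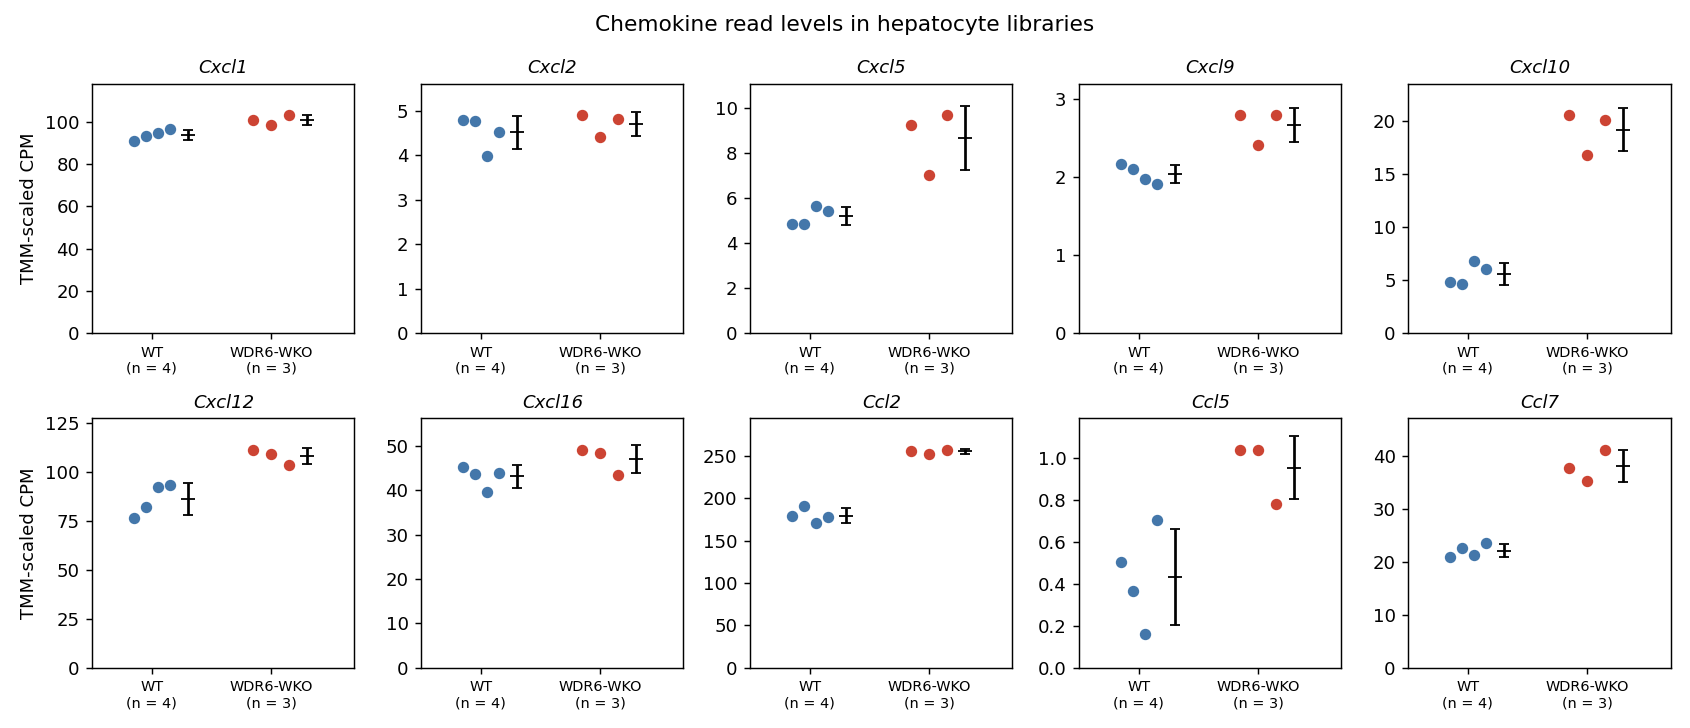
TMM-scaled CPM of each of the 10 chemokines in the 4 WT (blue) and 3 WDR6-WKO (red) libraries, 1 panel per gene with its own axis from 0. Points are libraries in replicate order and bars are the mean ± SD, and the points of both genotypes overlap only for *Cxcl2* and *Cxcl16*.

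Of the ligands of CXCR3 among the 10, *Cxcl10* showed the largest fold of the 10. It was counted at 4.79, 4.61, 6.81 and 6.02 CPM in WT replicates 1 to 4 and at 20.6, 16.8 and 20.1 CPM in WDR6-WKO replicates 1 to 3. The lowest WDR6-WKO library thus lay far above the highest WT library. The raw counts behind these levels were 95, 88, 128 and 120 in WT and 495, 356 and 359 in WDR6-WKO. Its mean was 5.56 ± 1.04 CPM in WT and 19.1 ± 2.03 in WDR6-WKO, 3.45 times as high (log2 fold change 1.78, standard error 0.13).
*Cxcl9*, its neighbour on chromosome 5 and a ligand of the same receptor, was at 2.17, 2.09, 1.97 and 1.91 CPM in WT and at 2.78, 2.41 and 2.79 CPM in WDR6-WKO. The groups did not overlap, but the gap between the nearest libraries was narrow, and the gene was not past the threshold over all genes. Its log2 fold change was 0.39 (standard error 0.18).

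The neutrophil-attracting genes differed among themselves, although they share a receptor and a stretch of chromosome 5. *Cxcl5*, a ligand of CXCR2, was at 4.84, 4.87, 5.64 and 5.42 CPM in WT and at 9.27, 7.04 and 9.72 CPM in WDR6-WKO. Every WDR6-WKO library was above every WT library, and WDR6-WKO replicate 2 was the lowest of the 3. The log2 fold change of *Cxcl5* was 0.74 (standard error 0.14).
*Cxcl1*, the most abundant gene of this subgroup, was at 91.2, 93.2, 94.7 and 96.5 CPM in WT and at 101, 98.6 and 103 CPM in WDR6-WKO. The groups did not overlap, although the means differed by little. Its log2 fold change was 0.10 (standard error 0.05), and it was not past the threshold.
*Cxcl2* was at 4.79, 4.77, 3.99 and 4.52 CPM in WT and at 4.90, 4.39 and 4.80 CPM in WDR6-WKO. The libraries of both genotypes were mixed, and the log2 fold change was 0.06 (standard error 0.14).

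*Cxcl12* and *Cxcl16* have roles outside acute inflammation. *Cxcl12*, the ligand of CXCR4 and of the scavenging receptor ACKR3, holds hematopoietic cells in their niches. It was at 76.4, 81.7, 92.1 and 93.1 CPM in WT and at 111, 109 and 103 CPM in WDR6-WKO. WT replicates 1 and 2 were below the other WT libraries, and all WT libraries were below all WDR6-WKO libraries. The log2 fold change was 0.33 (standard error 0.07).
*Cxcl16*, a chemokine made as a transmembrane protein that also binds oxidized lipoproteins and is the ligand of CXCR6, was at 45.3, 43.6, 39.5 and 44.0 CPM in WT and at 49.2, 48.5 and 43.5 CPM in WDR6-WKO. WDR6-WKO replicate 3 fell among the WT libraries, and the other 2 were above them. The log2 fold change was 0.13 (standard error 0.07), and 0.18 without that library.

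The CC chemokines held both the most abundant gene of the 10 and one near the lower limit of the table. *Ccl2*, which recruits monocytes, was at 179, 191, 171 and 178 CPM in WT and at 256, 253 and 258 CPM in WDR6-WKO. The 3 WDR6-WKO libraries lay close together and well above the WT range, including WDR6-WKO replicate 3, which was the highest. Its mean rose from 180 ± 8.53 to 255 ± 2.45 CPM (log2 fold change 0.51, standard error 0.05).
*Ccl7*, its neighbour and another ligand of CCR2, was at 20.9, 22.6, 21.3 and 23.6 CPM in WT and at 37.6, 35.3 and 41.2 CPM in WDR6-WKO. WDR6-WKO replicate 3 was again the highest library. The log2 fold change was 0.78 (standard error 0.08).
*Ccl5*, a ligand of CCR1 that attracts T cells, had raw counts of only 10, 7, 3 and 14 in WT and 25, 22 and 14 in WDR6-WKO. These correspond to 0.433 ± 0.229 CPM (n = 4) and 0.953 ± 0.149 CPM (n = 3). The groups did not overlap, but the log2 fold change of 1.13 had a standard error of 0.39, the largest of the 10, and the gene was not past the threshold. It was past it under 4 of 14 alternatives, namely with limma-voom, with the replicate block, without WT replicate 4 and without WDR6-WKO replicate 3. No WDR6-WKO library has the number 4, so the replicate block also takes WT replicate 4 out of the genotype contrast. The block and the fit without WT replicate 4 are thus not separate results. The log2 fold change moved from 0.86 without WT replicate 3 to 1.46 without WT replicate 4.

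**Figure D2:**
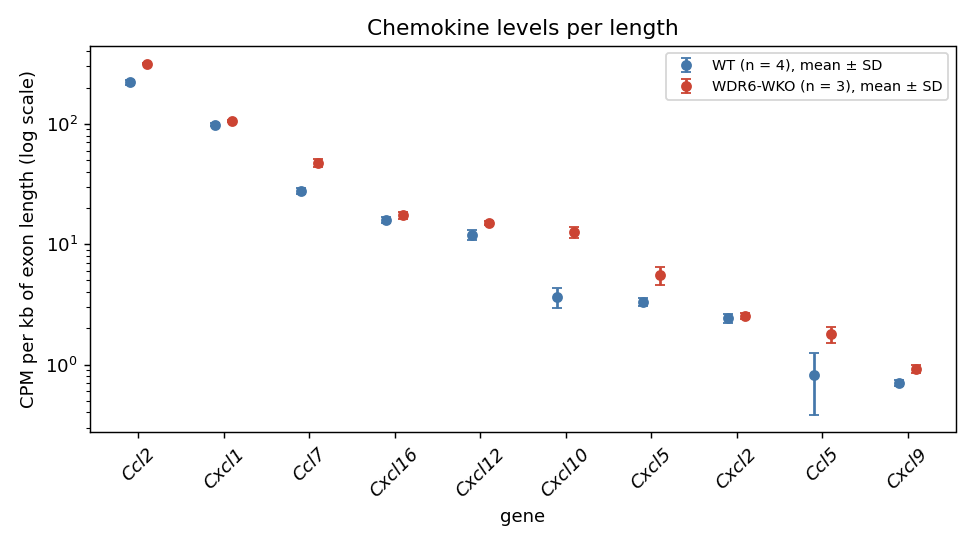
Mean ± SD of CPM per kb of exon length for the 10 chemokines in WT (blue, n = 4) and WDR6-WKO (red, n = 3), on a log axis and ordered by the WT level. *Ccl2* is at the top at 221 in WT and 314 in WDR6-WKO, and *Cxcl9* is at the bottom at 0.704 and 0.921.

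Levels of different genes were compared per length, as CPM per kb of the annotated exons. *Ccl2* led in WT at 221 ± 10.5 and *Cxcl1* followed at 98.5 ± 2.40. *Ccl7* (27.6), *Cxcl16* (16.0), *Cxcl12* (12.0), *Cxcl10* (3.66), *Cxcl5* (3.30), *Cxcl2* (2.43), *Ccl5* (0.814) and *Cxcl9* (0.704) came next in that order. The WT libraries of *Cxcl10* and *Cxcl5* overlapped on this scale, as did those of *Ccl5* and *Cxcl9*, so those neighbours were not ordered beyond their spread. The order was the same in WDR6-WKO. There *Cxcl10* reached 12.6 ± 1.34 and stood just below *Cxcl12* at 15.1 ± 0.562. As shares of the summed CPM of the 10, *Cxcl10* went from 1.26% to 3.27% and *Ccl2* from 40.6% to 43.6%, while *Cxcl1* went from 21.2% to 17.2%.

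The other chemokine ligands, 29 genes by list, had 14 genes in the table, and the other 15 were not analysed here. Of the 14, 8 rose in WDR6-WKO, 0 fell and 6 did not pass the test, beside 6.65% of all genes called higher and 6.18% lower. In the lower direction, 1 passed at an unadjusted p under 0.05 in edgeR's test, and 0 passed with DESeq2 or limma-voom after adjustment. Their median log2 fold change was 0.52 against 0.01 for all genes. *Ccl20*, the ligand of CCR6, rose from 4.74 ± 0.457 (n = 4) to 11.0 ± 1.15 CPM (n = 3; log2 fold change 1.21 with a standard error of 0.13, adjusted p = 1.11e-05 in edgeR's test). *Ccl6* and *Ccl9*, CC chemokines of mice that bind CCR1, were more abundant. *Ccl6* rose from 213 ± 11.6 to 307 ± 21.4 CPM (log2 fold change 0.53, adjusted p = 1.62e-05 in edgeR's test). *Ccl9* rose from 77.4 ± 3.80 to 124 ± 2.72 CPM (log2 fold change 0.68, adjusted p = 7.91e-07 in that test). *Ccl24*, an eotaxin that attracts eosinophils, rose from 9.57 ± 0.814 to 16.7 ± 0.933 CPM (log2 fold change 0.80, adjusted p = 5.92e-05 in that test). *Pf4*, *Cxcl14*, *Ccl4* and *Ccl3* rose with log2 fold changes of 0.35 to 0.74. The call of *Ccl3* (adjusted p = 0.0461 in edgeR's test) was lost under 6 of 14 alternatives, and that of *Pf4* was lost without WDR6-WKO replicate 2 (adjusted p = 0.0687).

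Among the 6 ligands that did not pass, *Ccl25* and *Cxcl13* had negative log2 fold changes of -0.22 and -0.51, and both passed the test as lower when WDR6-WKO replicate 3 was left out (adjusted p = 0.0404 and 0.0379 in edgeR's test). *Cxcl11*, another ligand of CXCR3 that this annotation lists as a polymorphic pseudogene and whose exons overlap *Gm2673* on the opposite strand, was at 0.583 ± 0.173 CPM in WT and 0.835 ± 0.443 in WDR6-WKO, with overlapping libraries. Over all 24 ligands in the table the summed level was 801 ± 28.6 CPM in WT and 1114 ± 23.2 in WDR6-WKO.

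**Figure D3:**
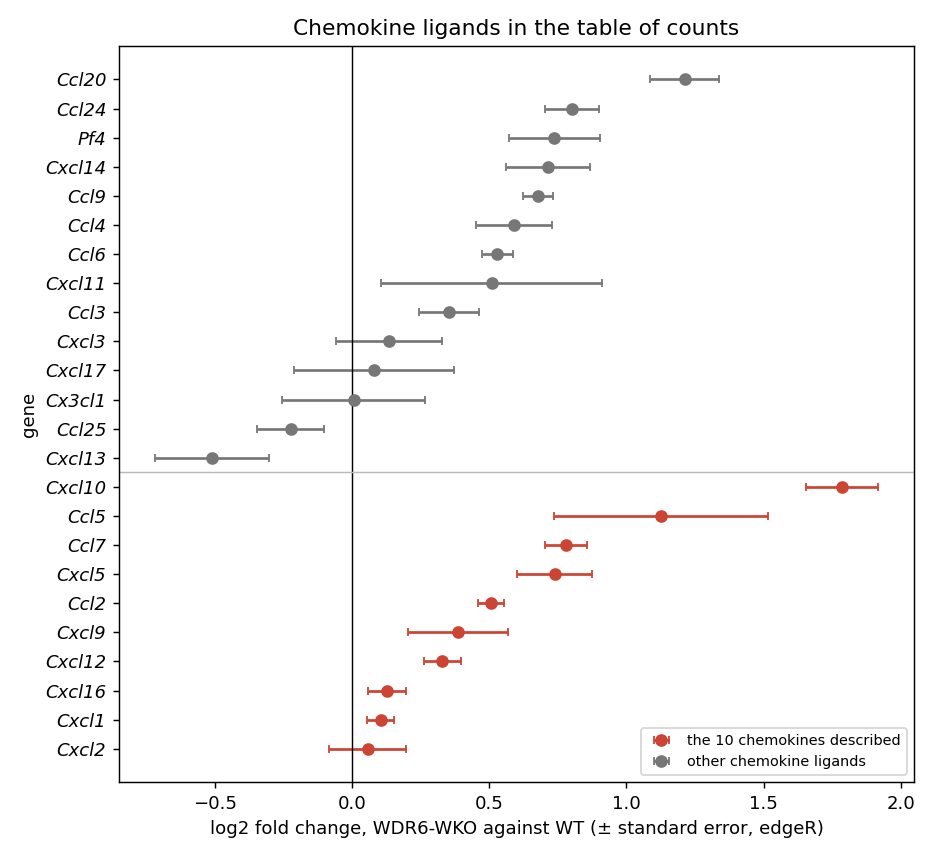
Log2 fold change of WDR6-WKO against WT with a standard error derived from edgeR's F statistic, 1 row per gene. The 10 chemokines are red and the 14 other chemokine ligands in the table are grey. *Cxcl10* lies farthest to the right at 1.78, and *Ccl25* and *Cxcl13* are the only ligands left of 0.

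Of 24 chemokine receptors, 7 were in the table, and 1 of them rose, 0 fell (also 0 with DESeq2, with limma-voom and at an unadjusted p under 0.05 in edgeR's test) and 6 did not pass the test. The 1 call is a single gene, beside 6.65% of all genes called higher and 6.18% called lower. *Ccr1*, a receptor of *Ccl5* and *Ccl7* carried by myeloid cells, rose from 1.20 ± 0.216 CPM (n = 4) to 3.67 ± 1.13 CPM (n = 3; log2 fold change 1.60 with a standard error of 0.24, adjusted p = 0.000351 in edgeR's test). The receptors of *Cxcl12* did not pass. *Cxcr4* was at 3.40 ± 0.345 and 2.70 ± 0.340 CPM, and *Ackr3* at 1.04 ± 0.129 and 0.661 ± 0.234 CPM, in WT and WDR6-WKO. For both, every WDR6-WKO library lay below every WT library. Of the 7 receptors, 2 lay wholly lower in WDR6-WKO and 2 wholly higher, beside 1732 and 1747 of all 14779 genes tested. The median log2 fold change of the 7 receptors was -0.33. *Cxcr2*, *Cxcr3*, *Cxcr6* and *Ccr2* were not analysed here.

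Of 15 genes tested that present or cleave chemokines, 1 rose, 2 fell and 12 did not pass. Over all genes tested, 6.65% were called higher and 6.18% lower. *Mmp12*, a macrophage elastase, rose from 183 ± 6.37 to 247 ± 24.9 CPM (log2 fold change 0.43, adjusted p = 0.000197 in edgeR's test). *Dpp4*, the peptidase that trims the amino terminus of chemokines such as CXCL10, fell from 46.7 ± 3.58 to 37.9 ± 1.35 CPM (log2 fold change -0.30, adjusted p = 0.00943 in edgeR's test), and it missed the threshold without WDR6-WKO replicate 1 (adjusted p = 0.0508). *Adam10*, a protease that sheds CXCL16, fell from 237 ± 7.75 to 208 ± 14.6 CPM (log2 fold change -0.19, adjusted p = 0.0305 in edgeR's test), a call that 8 of 14 alternatives did not keep.

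Of 23 listed cytokines and receptors that induce chemokines, 19 were in the table, and *Il1b*, *Il6*, *Ifnb1* and *Ifng* were not analysed here. Of the 19, 2 rose, 4 fell and 13 did not pass, beside 6.65% of all genes called higher and 6.18% called lower. *Tlr3*, the sensor of double-stranded RNA, rose (25.2 ± 1.71 to 32.5 ± 3.14 CPM, adjusted p = 0.00926 in edgeR's test), as did *Il6ra* (log2 fold change 0.23). *Il1r1*, the receptor of interleukin-1, fell from 144 ± 6.08 to 116 ± 2.15 CPM (adjusted p = 0.000848 in edgeR's test). *Ifngr1*, *Ifnar1* and *Il6st* fell, with log2 fold changes of -0.20, -0.22 and -0.19. *Tnf* itself was at 0.829 ± 0.432 CPM in WT and 0.815 ± 0.0946 in WDR6-WKO.

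Of 16 transcription factors known to act at chemokine promoters, 5 rose, 0 fell (also 0 with DESeq2 or limma-voom, and 2 at an unadjusted p under 0.05 in edgeR's test) and 11 did not pass. Over all genes tested, 6.65% were called higher and 6.18% lower. *Stat2* and *Irf9*, subunits of the complex that binds the interferon-stimulated response element, rose from 59.4 ± 2.39 to 93.2 ± 5.88 CPM and from 33.2 ± 2.08 to 50.3 ± 3.35 CPM (adjusted p = 3.02e-06 and 3.75e-05 in edgeR's test). *Irf7* rose from 67.5 ± 5.14 to 128 ± 20.4 CPM (adjusted p = 7.71e-05) in the same edgeR test. *Jun*, named after its values were seen, had a log2 fold change of 0.30. Of the NF-κB subunits, likewise named afterwards, *Rela* was at 147 ± 6.25 and 147 ± 4.72 CPM and *Nfkb1* at 114 ± 2.59 and 121 ± 3.03 CPM in WT and WDR6-WKO, and neither passed the test. The number of calls in these upstream and processing lists changed with single libraries. They numbered 14 of 50, 8 without WT replicate 4 or WDR6-WKO replicate 1, 9 without WDR6-WKO replicate 2 and 24 without WDR6-WKO replicate 3. The calls over all genes moved likewise, from 1897 of 14779 to 1182 of 14712 without WT replicate 4. They were 1180 of 14791 and 1032 of 14792 without WDR6-WKO replicates 1 and 2, and 4233 of 14796 without WDR6-WKO replicate 3. *Il6ra*, *Ifngr1*, *Ifnar1*, *Il6st* and *Jun* each lost their call in all 3 fits that left out WT replicate 4, WDR6-WKO replicate 1 or WDR6-WKO replicate 2.

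RNA of other liver cells was present in these libraries, and in bulk RNA a change in the number of such cells and a change in the RNA of each cell cannot be told apart. Of 14 Kupffer cell and macrophage markers, 5 rose (*Lyz2*, *C1qc*, *Fcgr1* and *C1qb* and, named afterwards, *Cd14*, with log2 fold changes of 0.18 to 0.75), 0 fell (also 0 with DESeq2 or limma-voom, and 1 at an unadjusted p under 0.05 in edgeR's test) and 9 did not pass. The call of *C1qb* was lost under 5 of 14 alternatives and that of *Cd14* under 6, the replicate block among them for both. The log2 fold change was positive for 13 of the 14. For *Timd4*, named afterwards, it was negative (-0.58 to -0.41 under the 14 alternatives), and the gene did not pass under any of them. The median of the 14 was 0.23, against 0.01 over all genes tested, of which 6.65% were called higher and 6.18% lower. Their summed level was 1009 to 1071 CPM in WT and 1150 to 1357 in WDR6-WKO, 1.21 times the WT mean. The defining markers *Clec4f* and *Adgre1* were at 117 ± 5.62 and 16.9 ± 1.74 CPM in WT and 126 ± 10.4 and 20.1 ± 0.918 in WDR6-WKO, and did not pass. In WDR6-WKO replicate 3 the macrophage sum was the lowest of its genotype, at 1150 CPM, while the sum of the 10 chemokines there was 587 CPM, between the other 2 libraries. The summed level of the 14 other chemokine ligands was 527, 557 and 501 CPM in WDR6-WKO replicates 1 to 3, in the same order as the macrophage sums of 1269, 1357 and 1150 CPM, with replicate 3 the lowest in both. The part of macrophage content in the chemokine levels was not tested.

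Markers of other cells were counted in the same way, beside 6.65% of all genes called higher and 6.18% called lower. Of 11 sinusoidal endothelial markers, 0 passed edgeR's test in either direction, as with DESeq2, with limma-voom and at an unadjusted p under 0.05. Their sum was 341 to 388 CPM in WT and 323 to 383 in WDR6-WKO (*Stab2* 37.4 ± 2.72 and 38.9 ± 5.23). Of 10 stellate cell markers, 2 rose (*Acta2* and *Dcn*, the latter lost under 5 of 14 alternatives), with sums of 593 to 652 and 644 to 696 CPM, and *Lrat* was at 20.9 ± 3.36 and 18.4 ± 1.03 CPM. Of 5 cholangiocyte markers, 2 rose, and the sum of 3068 to 3360 CPM in WT and 3713 to 4306 in WDR6-WKO, 1.22 times the WT mean, was mostly *Spp1*, the secreted protein osteopontin (2980 ± 178 and 3693 ± 338 CPM), with *Sox9*, lost under 5 of 14 alternatives, as the other and *Krt19* at 148 ± 15.3 and 143 ± 18.5 CPM. Of 12 neutrophil and monocyte markers, 3 were in the table and 1 rose, *Chil3*, with sums of 18.7 to 20.4 and 19.2 to 24.5 CPM. *S100a8* and all 11 T and NK cell markers, *Cd3e* among them, were not analysed here. The calls over all 43 markers of other cells were 10, all higher. They numbered 6 without WT replicate 2, WDR6-WKO replicate 1 or WDR6-WKO replicate 2, and 15 without WDR6-WKO replicate 3. The calls over all genes moved likewise, from 1897 of 14779 to 1288 of 14738 without WT replicate 2. They were 1180 of 14791 and 1032 of 14792 without WDR6-WKO replicates 1 and 2, and 4233 of 14796 without WDR6-WKO replicate 3. Whether these cells contribute to the chemokine levels was not tested.

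**Figure D4:**
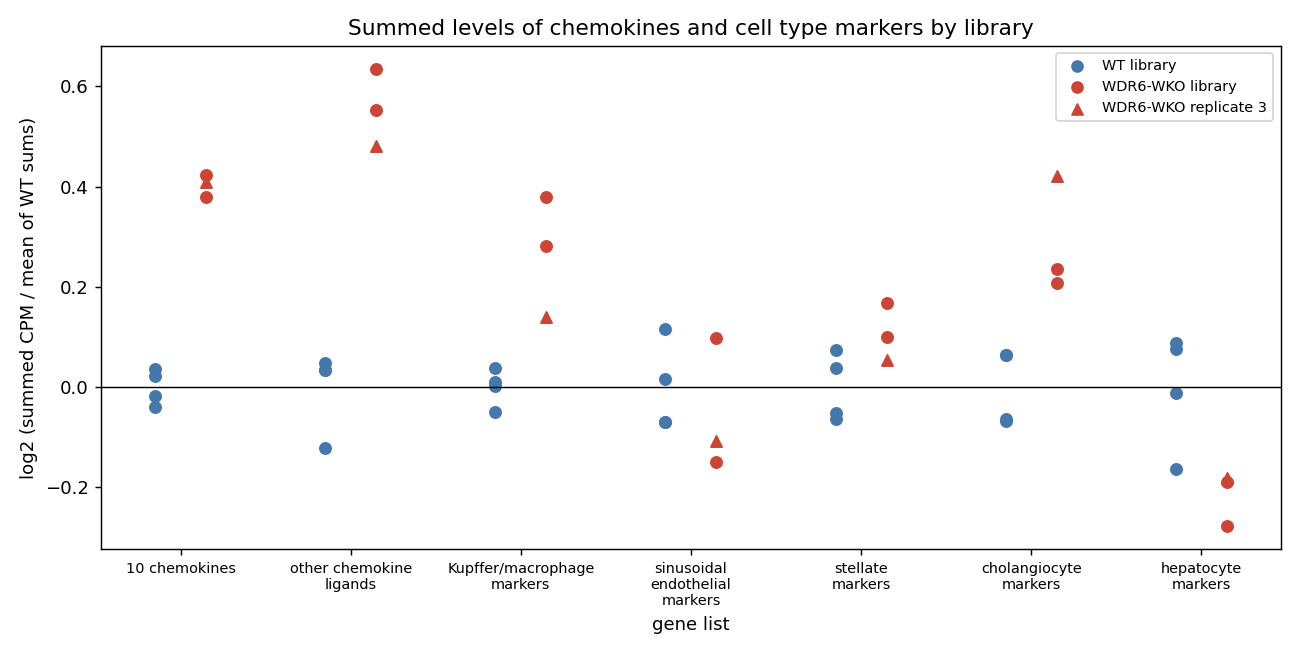
Log2 of the summed CPM of each gene list in each library over the mean of the 4 WT sums, for WT (blue) and WDR6-WKO (red) libraries, with WDR6-WKO replicate 3 as a triangle. The 3 WDR6-WKO libraries lie close together for the 10 chemokines, well above the WT libraries. Replicate 3 is the lowest of its genotype for the other chemokine ligands and for the macrophage and stellate markers. For the cholangiocyte markers it is the highest.

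The genes closest in pattern to *Cxcl10* and *Ccl2*, the gene with the largest fold and the most abundant one, were found among 13137 genes with a mean of at least 1 CPM. Likeness was the root mean square difference of log2 CPM over the 7 libraries, each gene centred on its own mean. The 5 nearest to *Cxcl10* were *Cmpk2* (0.127), *Ifi44* (0.142), *Mmp13* (0.158), *Gbp3* (0.192) and *Ifit1* (0.203). The 5 nearest to *Ccl2* were *Lgals3bp* (0.0498), *Sema3e* (0.0501), *Smim3* (0.0519), *Rin1* (0.0567) and *Tmem158* (0.0577). The choice by likeness fixed that these genes also share the direction of *Cxcl10* and *Ccl2*. Likeness over 7 libraries says nothing of shared control.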

How the data were processed

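RNA of hepatocytes from WT mice (4 samples) and WDR6-WKO mice (3 samples) was sequenced by the authors on an Illumina HiSeq platform and aligned to mm10 with Bowtie2 2.2.3, per the submitters' processing notes. The values the authors deposited are raw read counts for each gene symbol. The counting tool, annotation and strand setting are not given in the sources used here. The table has 14819 rows, a smallest row total of 50 reads over the libraries, and 21 identifiers turned into dates, which were kept in the tests unnamed.

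Counts were analysed with edgeR 4.0.16 in R 4.3.3, with TMM scaling, the filterByExpr filter (14779 genes passed), the robust quasi-likelihood test on genotype alone and Benjamini-Hochberg adjustment over all genes tested. A gene was called at an adjusted p under 0.05. Standard errors of log2 fold changes were derived as the absolute log2 fold change over the square root of edgeR's F statistic. The biological coefficient of variation was 7.40%. With libraries of 17816913 to 23668940 reads, counting error is small for the abundant chemokines and large for *Ccl5*. Libraries of one genotype had Spearman correlations of 0.992 to 0.996 and differed by more than sampling noise. The steps were tested on simulated data.

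The members and gene lists were chosen with earlier results of these data known. Named were the 10 chemokines, at most 4 called genes with the smallest p per list and direction, the receptors of the 10, the defining markers, *Wdr6*, and the 5 nearest patterns to *Cxcl10* and *Ccl2*. Other genes are named as chosen afterwards or within a count. Some genes that the rule names are not reported here. Alternatives were library sizes alone, median-of-ratios size factors, DESeq2 1.42.0, limma-voom (limma 3.58.1), no filter, at least 10 counts in every library, a replicate block, and each library left out. Gene positions and lengths came from GENCODE for GRCm38, and promoters from RefSeq for GRCm38.p6.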

Additional observations from a re-analysis of the deposited data

How the results depend on the processing

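Of 139 log2 fold changes of the 10 chemokines under 14 alternatives, all 139 were above 0 and 137 lay within the spread between libraries of the main value. The other 2 were of *Ccl5*, which moved from 1.13 to 1.46 with the replicate block and to 1.46 without WT replicate 4. Both fits leave WT replicate 4 out of the genotype contrast, since no WDR6-WKO library shares its number. They are thus not separate results. *Ccl5* could not be tested with at least 10 counts in every library. The number of chemokines past the threshold was 5, between 5 and 7 with a library left out and 5 or 6 under the other alternatives. The calls over all genes depended on single libraries. They numbered 1897, ranged from 1032 without WDR6-WKO replicate 2 to 4233 without WDR6-WKO replicate 3, and were 1210 without WT replicate 3, 1182 without WT replicate 4 and 1180 without WDR6-WKO replicate 1. The cause was not tested. Under the other alternatives they were 1762 to 2000. Other ligands called were 8, and 6 to 10 with a library left out. Receptors called were 1, 2 with DESeq2 and 1 to 2 with a library left out. Upstream and processing genes called were 14, and 8 to 24 with a library left out. Markers of other cells called were 10, and 6 to 15. The labels give same-numbered libraries of both genotypes a shared number and no other link. Their deviations from the group means correlated at 0.069, 0.031 and 0.057, and those of differently numbered libraries at -0.173 to 0.153. Deviations from a group mean depend on each other within the group, so these values cannot show whether libraries were paired. The replicate block called 1762 genes, 6 of the 10 chemokines, with *Ccl5* added, and 7 other ligands. Depth limits *Ccl5* most, at 3 to 25 reads per library.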

Other observations

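The spread of the 10 chemokines between libraries of one genotype differed from gene to gene. As a pooled SD of log2 CPM within genotype, it was 0.035 for *Cxcl1* and 0.053 for *Ccl2*, and 0.214 for *Cxcl10* and 0.300 for *Ccl5*. The median SD of the 500 genes nearest in mean level was 0.073, 0.065, 0.142 and 0.275 in that order. Of those genes, 8.2%, 35%, 88.2% and 60.8% had a smaller SD than the chemokine. The pooled SD of *Cxcl12* was 0.112, with WT replicates 1 and 2 below WT replicates 3 and 4. No chemokine had a WT library that stood apart from the other WT libraries by Dixon's criterion.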
